A study of Mus musculus with 12 samples.

Results

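Cell cycle and DNA replication genes were followed across wild-type, Rex1+/- and Rex1-/- mouse ES cells. They are the gene probes whose symbol in the files begins with Ccna, Ccnb, Ccnd, Ccne, Cdc, Cdk (without Cdkn1a and Cdkn1c), E2f, Mcm and a digit, Orc, Rfc, Plk, Aurk, Bub, Mad2 or Mybl, or is Pcna, Rb1, Myc or Mycn. This rule, which uses no measured value, took 64 of 20280 gene probes, for 54 symbols. Of these symbols, 8 had more than 1 probe, 18 probes in all. The current symbol was used by 51 of the probes and an older one by 13, among them Plk (now Plk1), Cdc2a (now Cdk1) and Orc6l (now Orc6). Of the 64 probes, 15 were placed in none of the roles described here, such as the effectors of the GTPase Cdc42.

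RNA was taken from EB5, RKPG9, HP3 and HP4, ES cell lines that all derive from E14tg2a and were grown without feeder cells, on gelatin and with LIF, the cytokine that keeps ES cells undifferentiated. EB5 carries both wild-type Rex1 alleles. RKPG9 is 1 Rex1+/- clone, in which a cassette of a puromycin resistance gene and EGFP takes the place of the start of the open reading frame in exon 4. HP3 and HP4 are Rex1-/- lines. The study made such lines from Rex1+/- cells either by a high dose of puromycin or with a second targeting vector that carries hygromycin resistance, and which of these routes gave HP3 and HP4 is not given in the sources used here. Wild type and Rex1+/- are represented by 1 line each. Each line was hybridised on 3 arrays in Cy3 against a pooled mouse reference RNA in Cy5, and a level is the log2 ratio of the line over this reference. The labels do not name separate cultures for the replicates, and p-values here describe array-to-array spread that may be technical. The EB5 arrays were read by the scanner software in another session and with other settings than the arrays of RKPG9, HP3 and HP4. In any contrast with EB5, line and session cannot be told apart, whereas HP3, HP4 and RKPG9 share 1 session.

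Before S phase, the origin recognition complex (the Orc proteins) marks replication origins, Cdc6 helps to load the Mcm helicase onto them, and the Cdc7 kinase and Cdc45 help to fire them. Pcna is the sliding clamp of the polymerases, which the Rfc complex loads. Cyclins of the D and E types drive passage through G1 with Cdk4, Cdk6 and Cdk2, cyclins of the A and B types act in S phase and mitosis, and the Cdc25 phosphatases activate the kinases. Plk1, Bub1, Bub1b and Mad2l1 act in mitosis and in its spindle checkpoint, and Cdc20 and Cdc16 belong to the machinery of the anaphase-promoting complex, which ends mitosis. ES cells are known for a short G1 and for E2F target genes that are active through much of the cycle.

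Between the lines of 1 session, some replication members were lower in both Rex1-/- lines than in RKPG9, while others did not pass. RKPG9 is 1 clone, and in these contrasts a trait of that clone and one of the Rex1-/- lines cannot be told apart. Some mitotic members were higher in both with the loess correction, but no mitotic kinase or checkpoint member was higher in either line with median centring. In HP3 against RKPG9, 9 of the 64 probes were higher and 17 lower at an adjusted p under 0.05, which is 40.6% against 22.7% of all probes. Over all probes, 12.6% were higher and 10.1% lower. In HP4 against RKPG9, 17 were higher and 22 lower, or 60.9% against 40.0% of all probes, of which 20.9% were higher and 19.1% lower. Bright probes were called more often in general: among the 10140 brighter probes of the array, which include 52 of the 64, 44.2% of these members were called against 35.6% of all probes in HP3, and 65.4% against 52.1% in HP4. The changes were small, with a median size of 0.22 among the called members in HP3 and 0.24 in HP4 on the log2 scale, and no member passed 2-fold in either, beside 0.281% and 0.380% of all probes that were called and did so. RKPG9 arrays enter both comparisons, so that the 2 sets of values are not independent. With each array centred on its median in place of a loess correction, which depends on intensity, the split was 1 higher and 18 lower in HP3 and 6 higher and 45 lower in HP4. Under that scaling the 10140 brighter probes lay at a median of -0.31 in HP4 against RKPG9 and -0.05 in HP3, compared with -0.01 and 0.01 after loess. In bulk RNA, fewer cells in a phase of the cycle and less RNA per cell cannot be told apart.

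**Figure D1:**
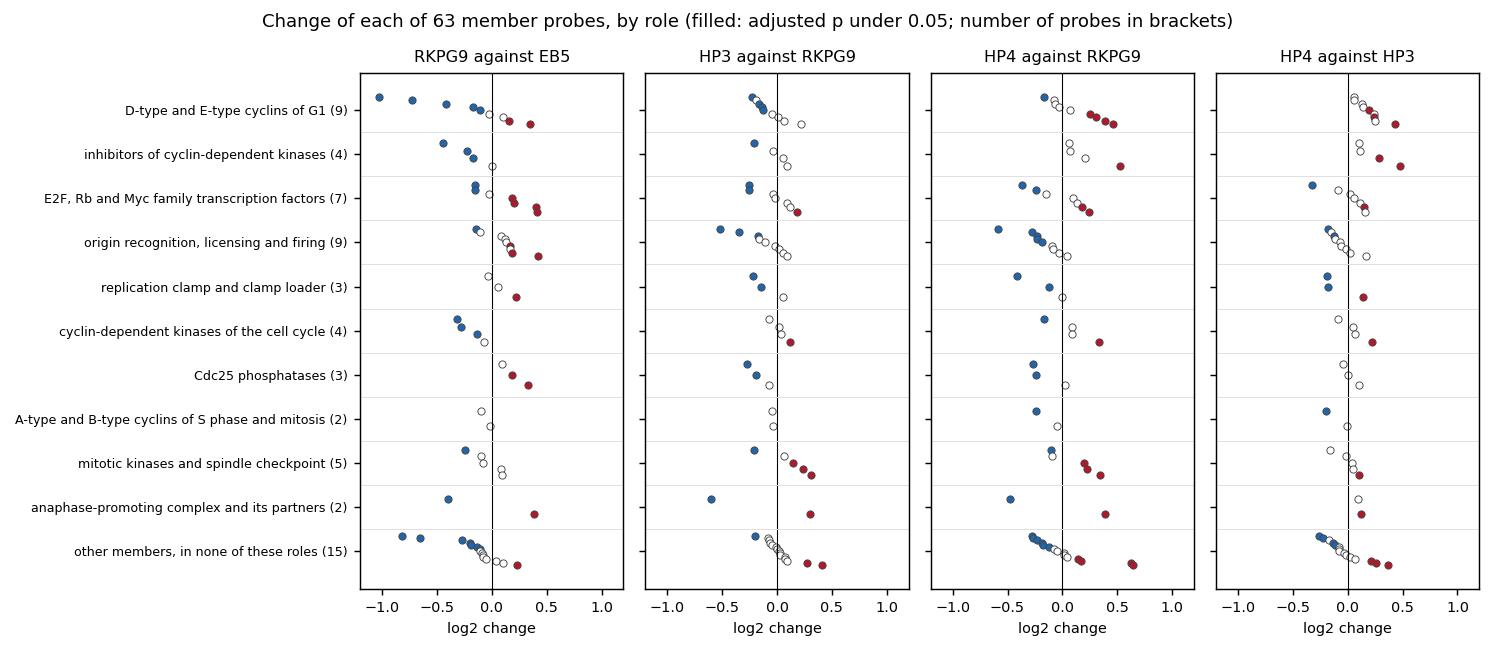
Each point is 1 of 63 of the 64 member probes, placed by its log2 change on the x axis and grouped by role on the y axis, in RKPG9 against EB5, HP3 against RKPG9, HP4 against RKPG9 and HP4 against HP3. Filled points passed an adjusted p under 0.05, blue for lower and red for higher. None of the 9 origin, licensing and firing members is filled on the higher side in HP3 or HP4 against RKPG9. The Mcm subunits, under other symbols in the files, are not plotted.

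Of the 9 members of origin recognition, licensing and firing, 3 were lower in HP3 than in RKPG9 and 5 in HP4, and none was higher in either. Of all probes, 10.1% were lower in HP3 and 19.1% in HP4, and 35.6% and 52.1% of the brighter ones were called in either direction. The median change of the 9 members was -0.11 in HP3 and -0.18 in HP4, beside 0.00 and 0.01 over all probes. The Mcm subunits, under other symbols in the files, are not among the 9. They are given below, with Mcm2 and Mcm3 higher and Mcm5 lower in HP3. Orc6l, a subunit of the origin recognition complex, was at 1.44, 1.48 and 1.48 on the RKPG9 arrays, at 0.89, 0.98 and 0.96 on the HP3 arrays and at 0.81, 0.90 and 0.91 on the HP4 arrays. On the EB5 arrays it was at 1.03 and 1.05, and the spot of EB5 replicate 2 was left out as an outlier. All RKPG9 arrays were thus above all others, with no overlap. The change was -0.52 ± 0.04 (SE, 1.43-fold lower, adjusted p = 2.9e-06) in HP3 and -0.59 ± 0.04 (1.51-fold lower, adjusted p = 7.9e-07) in HP4 against RKPG9, with n = 3 arrays per line. Orc6l passed the test in both under all 16 alternatives run for it. Orc6l and Cdc16, given below, both lie on chromosome 8. Whether this position plays a part in their changes was not tested.

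Cdc6 was at 1.44, 1.46 and 1.49 in RKPG9, at 1.05, 1.13 and 1.15 in HP3, at 1.13, 1.27 and 1.42 in HP4 and at 1.20, 1.30 and 1.32 in EB5. The RKPG9 arrays were again the highest, although HP4 replicate 3 came close to them. Cdc6 was lower by 0.35 on the log2 scale in HP3 (1.27-fold, adjusted p = 0.0017). In HP4 the change was -0.18 (adjusted p = 0.039), and the call was lost when any RKPG9 array or HP4 replicate 1 or 2 was left out (-0.19 to -0.11, adjusted p 0.068 to 0.14). With the Cy3 channel alone the changes were -0.18 in HP3 (adjusted p = 0.21) and 0.13 in HP4, and the call in HP4 was also lost with an offset of 0 (-0.11), with the processed signals (-0.13) and in a fit of only the 2 lines.

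Orc1l, the largest subunit of the complex, was at 1.87, 1.88 and 1.80 in RKPG9 and at 1.47, 1.63 and 1.62 in HP4, without overlap. Its change was -0.28 in HP4 (adjusted p = 0.011), but -0.14 with an offset of 0 (adjusted p = 0.13), -0.16 with the processed signals (adjusted p = 0.087) and 0.0055 with the Cy3 channel alone, and -0.16 in HP3, where it did not pass (adjusted p = 0.15) and the arrays overlapped. The kinase gene Cdc7l1 (now Cdc7) was at 0.36, 0.32 and 0.28 in RKPG9 and at 0.11, 0.02 and 0.12 in HP4, a change of -0.24 (adjusted p = 0.00082), or -0.11 with the Cy3 channel alone (adjusted p = 0.27). In HP3 its change was -0.11 (adjusted p = 0.083). Orc4 was lower by 0.17 in HP3 (adjusted p = 0.022) and by 0.23 in HP4 (adjusted p = 0.0024), but its call in HP3 was lost without RKPG9 replicate 2 or 3 or HP3 replicate 1 or 2 (-0.17 to -0.13, adjusted p 0.062 to 0.094). Orc2l, Orc3, Orc5l and Cdc45l lay between -0.09 and 0.09 in both and did not pass. Against EB5, 3 of the 9 members were higher and 1 lower in RKPG9, and 2 were higher and 1 lower in HP3. In HP4, none was higher and 3 were lower than in EB5. Of all probes, 34.1% (RKPG9), 30.5% (HP3) and 44.8% (HP4) were called against EB5.

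Of the 3 members of the clamp and its loader, 2 were lower in each line, beside 10.1% (HP3) and 19.1% (HP4) of all probes. Against EB5, 1 of the 3 was higher in RKPG9, none was called in HP3 and 2 were lower in HP4. Rfc1 and Rfc4, loader subunits under other symbols in the files, are not among these members and are given below. Pcna was at 0.48, 0.49 and 0.48 in RKPG9, at 0.29, 0.24 and 0.24 in HP3, at 0.10, 0.07 and 0.04 in HP4 and at 0.23, 0.30 and 0.26 in EB5. HP4 was lowest, RKPG9 highest, and HP3 and EB5 lay between and overlapped each other. The change against RKPG9 was -0.22 (adjusted p = 0.00028) in HP3 and -0.41 (1.33-fold lower, adjusted p = 1.5e-06) in HP4, and HP4 was below HP3 by 0.19 (adjusted p = 0.0014). Rfc3 was lower in HP3 by 0.15 (adjusted p = 0.0081), whereas its value in HP4 was -0.01 (adjusted p = 0.88).

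The 250 bases before the annotated start of Orc6, Cdc6 and Pcna are shown because, of the replication members that passed the test in both Rex1-/- lines, these had the largest changes in HP3. Orc4 also passed in both and is not shown. They are RefSeq sequences of GRCm38.p6, 5′ to 3′ on the strand of the gene, with an E2F-type motif or a CCAAT box (on either strand) in capitals. Orc6 lies on the + strand at chr8:85299382-85299631, Cdc6 on the + strand at chr11:98907901-98908150 and Pcna on the - strand at chr2:132253181-132253430.
Orc6: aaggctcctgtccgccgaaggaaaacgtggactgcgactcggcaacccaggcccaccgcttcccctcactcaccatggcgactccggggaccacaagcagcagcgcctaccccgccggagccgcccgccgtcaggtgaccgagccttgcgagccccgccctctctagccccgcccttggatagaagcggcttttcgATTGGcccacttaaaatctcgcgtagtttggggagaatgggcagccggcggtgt
Cdc6: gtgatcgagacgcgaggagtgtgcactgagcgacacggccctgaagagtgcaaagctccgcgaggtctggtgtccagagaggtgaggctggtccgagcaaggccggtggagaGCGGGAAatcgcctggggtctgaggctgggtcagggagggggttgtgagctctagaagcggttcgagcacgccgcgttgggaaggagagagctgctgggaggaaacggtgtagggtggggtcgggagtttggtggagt
Pcna: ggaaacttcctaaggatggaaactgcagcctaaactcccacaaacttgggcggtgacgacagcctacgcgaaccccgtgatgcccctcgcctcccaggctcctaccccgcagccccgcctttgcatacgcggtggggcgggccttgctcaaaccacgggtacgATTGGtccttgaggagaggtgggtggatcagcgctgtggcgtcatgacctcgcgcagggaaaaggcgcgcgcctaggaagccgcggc
Orc6 and Pcna hold 1 CCAAT box each in this stretch and Cdc6 holds 1 E2F-type motif. These are matches of letters and not measured sites.

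**Figure D2:**
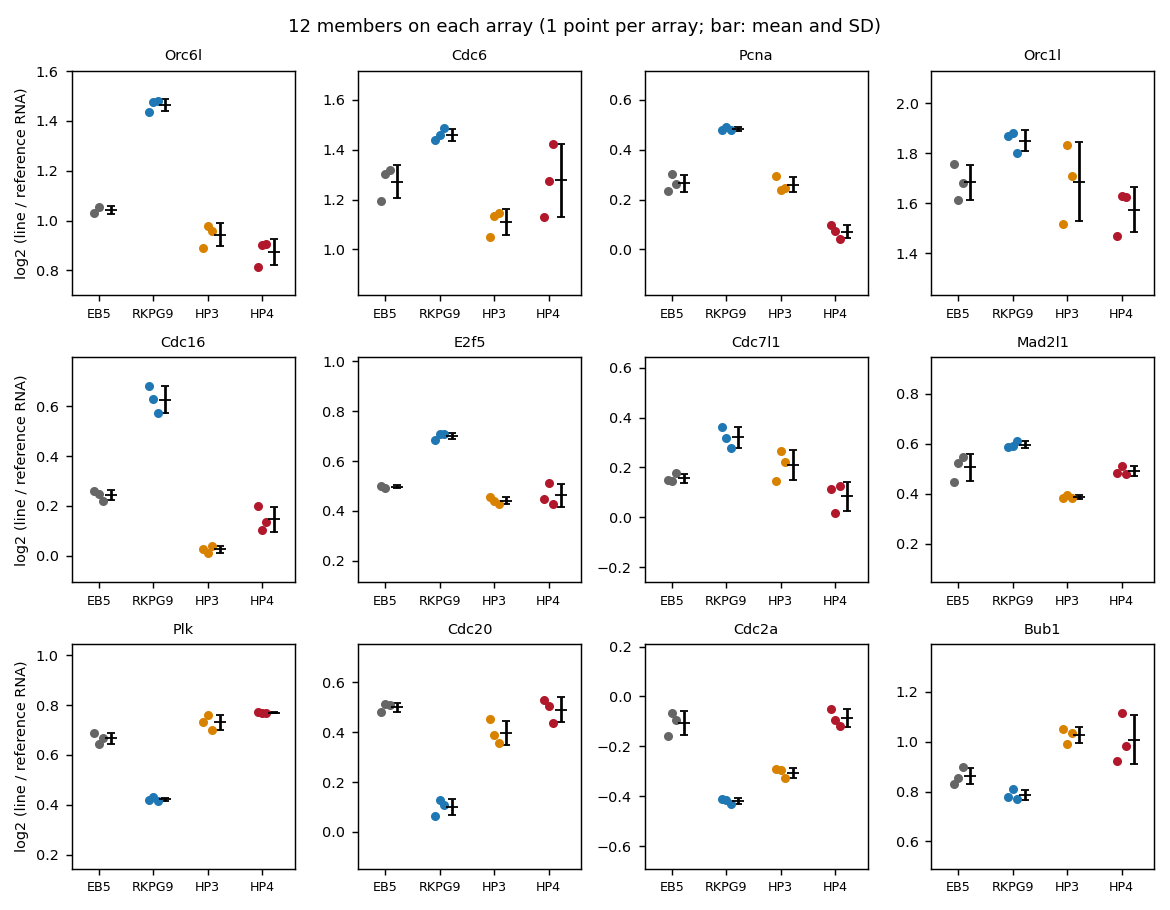
Each panel is 1 of 12 members, with the log2 ratio of the line over the reference RNA on the y axis, 1 point per array, and the bar showing the mean and SD of each line. Orc6l, Pcna, Cdc16 and E2f5 are highest on the RKPG9 arrays, and Plk, Cdc20 and Cdc2a are lowest on them.

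Cdc25a, the phosphatase that activates Cdk2, has 2 probes. At the first (A_65_P04654) it was at 1.98, 2.09 and 2.19 in RKPG9, with 1.91, 1.80 and 1.74 in HP3 and 1.82, 1.92 and 1.73 in HP4, and at the second (A_65_P20252) at 0.17, 0.13 and 0.11, at -0.13, -0.01 and -0.03 and at 0.00, -0.16 and -0.14. RKPG9 was above both Rex1-/- lines at both probes without overlap. The changes were -0.27 (adjusted p = 0.028) and -0.19 (adjusted p = 0.012) in HP3, and -0.27 (adjusted p = 0.019) and -0.24 (adjusted p = 0.002) in HP4. The first probe lost its call in HP3 without RKPG9 replicate 2 or 3 or HP3 replicate 2 or 3 (adjusted p 0.073 to 0.11) and in HP4 without RKPG9 replicate 3 or HP4 replicate 3 (adjusted p 0.072 to 0.076). The second probe lost it in HP3 without RKPG9 replicate 1 or HP3 replicate 1 (adjusted p 0.051 to 0.054). Other settings moved these values further: the first probe was -0.056 in HP4 with an offset of 0 (adjusted p = 0.71) and -0.053 with the processed signals (adjusted p = 0.74), and in HP3 -0.18 (adjusted p = 0.31) and -0.19 (adjusted p = 0.32). The second was -0.031 in HP4 with median centring (adjusted p = 0.61) and -0.12 in HP3 with the Cy3 channel alone (adjusted p = 0.43).

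E2f5, a repressive member of the E2F family, was at 0.69, 0.71 and 0.71 in RKPG9, at 0.46, 0.44 and 0.43 in HP3 and at 0.45, 0.51 and 0.43 in HP4, without overlap. It was lower by 0.26 in HP3 (adjusted p = 0.00015) and by 0.24 in HP4 (adjusted p = 0.00018), although with the Cy3 channel alone neither passed (-0.28 and -0.15, adjusted p = 0.091 and 0.26).

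Of the 5 mitotic kinase and checkpoint members, 3 were higher and 1 lower in each Rex1-/- line than in RKPG9, although with median centring none was higher in either, 1 was lower in HP3 and all 5 were lower in HP4. The shares of all probes were 12.6% higher and 10.1% lower in HP3, and 20.9% and 19.1% in HP4. Plk, the mitotic kinase Plk1, was at 0.42, 0.43 and 0.42 in RKPG9, at 0.73, 0.76 and 0.70 in HP3, at 0.77, 0.77 and 0.77 in HP4 and at 0.69, 0.65 and 0.67 in EB5. RKPG9 was below every array of the other lines. Plk was higher by 0.31 ± 0.03 in HP3 (SE, 1.24-fold, adjusted p = 9.5e-06) and by 0.35 ± 0.03 in HP4 (1.27-fold, adjusted p = 2.7e-06). Bub1, a checkpoint kinase, was at 0.78, 0.81 and 0.77 in RKPG9, with 1.05, 0.99 and 1.04 in HP3 and 0.92, 1.11 and 0.98 in HP4. These values did not overlap, and the changes were 0.24 (adjusted p = 0.0022) and 0.22 (adjusted p = 0.0023). Bub1b, which holds back Cdc20, was higher by 0.14 in HP3 (adjusted p = 0.0055) and by 0.19 in HP4 (adjusted p = 0.00045).

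Mad2l1, the other inhibitor of Cdc20 among the members, went the other way. It was at 0.59, 0.59 and 0.61 in RKPG9, at 0.38, 0.40 and 0.38 in HP3 and at 0.48, 0.51 and 0.48 in HP4, without overlap. It was lower by 0.21 in HP3 (adjusted p = 0.00057) and by 0.11 in HP4 (adjusted p = 0.023), although the call in HP4 was lost without RKPG9 replicate 2 or 3 or HP4 replicate 1 or 3 (-0.11 to -0.10, adjusted p 0.053 to 0.073). With the Cy3 channel alone the HP3 change was -0.11 (adjusted p = 0.54). Bub3 did not pass in either (0.06 and -0.10).

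The 2 members of the anaphase-promoting complex changed in opposite directions. Cdc20, its activator, was at 0.07, 0.13 and 0.11 in RKPG9, at 0.45, 0.39 and 0.36 in HP3, at 0.53, 0.50 and 0.44 in HP4 and at 0.48, 0.51 and 0.51 in EB5. RKPG9 was the low line, with no overlap. The change was 0.30 (1.23-fold, adjusted p = 9.8e-05) in HP3 and 0.39 (1.31-fold, adjusted p = 8e-06) in HP4. Cdc16, a core subunit, was at 0.68, 0.63 and 0.57 in RKPG9, at 0.03, 0.01 and 0.04 in HP3, at 0.20, 0.10 and 0.14 in HP4 and at 0.26, 0.25 and 0.22 in EB5. Here RKPG9 was the high line. Cdc16 was lower by 0.60 ± 0.04 in HP3 (SE, 1.52-fold, adjusted p = 4e-07), where it changed most among the members, and by 0.48 ± 0.04 in HP4 (1.39-fold, adjusted p = 1.5e-06). The HP4 value was -0.22 with the Cy3 channel alone (adjusted p = 0.057).

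Cdc2a, the mitotic kinase Cdk1, was at -0.41, -0.42 and -0.43 in RKPG9, -0.29, -0.30 and -0.33 in HP3, -0.05, -0.09 and -0.12 in HP4 and -0.16, -0.07 and -0.10 in EB5. HP3 lay between RKPG9 and HP4. Cdc2a was higher by 0.33 in HP4 (1.26-fold, adjusted p = 1.2e-05) and by 0.12 in HP3 (adjusted p = 0.027), a call that was lost without any 1 RKPG9 array or HP3 replicate 1 or 2 (0.11 to 0.12, adjusted p 0.057 to 0.087).

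Ccnb2, a B-type cyclin, was at 0.46, 0.44 and 0.40 in RKPG9, with 0.41, 0.40 and 0.37 in HP3 and 0.22, 0.18 and 0.18 in HP4. Only the HP4 arrays were apart, and Ccnb2 was lower there by 0.24 (adjusted p = 7.6e-05), against -0.04 in HP3 (adjusted p = 0.4). Ccna2, the cyclin of S phase and mitosis, did not pass in either (-0.04 and -0.05).

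The rise of mitotic members was lost with median centring in both lines, whereas part of it stayed with the Cy3 channel alone. With median centring, the HP4 change of Plk was -0.28, that of Cdc20 -0.32, that of Cdc2a -0.33, that of Bub1 -0.18 and that of Bub1b -0.24, beside a median of -0.31 over the 10140 brighter probes. In HP3, where those lay at -0.05, the values were 0.20 for Plk, 0.17 for Cdc20, 0.17 for Bub1, 0.07 for Bub1b and -0.01 for Cdc2a, and none of them passed (adjusted p 0.088 to 0.95). Without background subtraction, Plk, Cdc20 and Cdc2a passed in both lines, Bub1b passed in HP3 alone, and Bub1 in neither. With the Cy3 channel alone, where no loess was used, Plk passed in both lines, Cdc20 and Cdc2a in HP4 alone, and Bub1 and Bub1b in neither. The median of the 5 kinase and checkpoint members was then 0.11 in HP3 (1 higher, 0 lower) and 0.09 in HP4 (1 higher, 1 lower).

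The same stretch before the start is shown for Plk1, Cdc20 and Cdk1, the mitotic members with the largest rise in HP4 after loess, all of which turned there with median centring. Capitals mark E2F-type motifs, the CHR element TTTGAA of genes of late cycle phases, and CCAAT boxes, on either strand. Plk1 lies on the + strand at chr7:122159185-122159434, Cdc20 on the - strand at chr4:118437344-118437593 and Cdk1 on the - strand at chr10:69352913-69353162.
Plk1: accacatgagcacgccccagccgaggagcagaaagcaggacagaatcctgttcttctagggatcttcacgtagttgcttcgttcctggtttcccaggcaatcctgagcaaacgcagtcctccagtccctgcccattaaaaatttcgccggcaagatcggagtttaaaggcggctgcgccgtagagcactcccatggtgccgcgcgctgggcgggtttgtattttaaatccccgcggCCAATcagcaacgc
Cdc20: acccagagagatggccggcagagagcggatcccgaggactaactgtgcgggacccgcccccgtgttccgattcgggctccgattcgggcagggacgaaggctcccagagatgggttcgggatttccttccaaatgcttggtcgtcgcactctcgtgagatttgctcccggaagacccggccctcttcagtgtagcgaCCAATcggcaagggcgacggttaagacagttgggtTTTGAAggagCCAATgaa
Cdk1: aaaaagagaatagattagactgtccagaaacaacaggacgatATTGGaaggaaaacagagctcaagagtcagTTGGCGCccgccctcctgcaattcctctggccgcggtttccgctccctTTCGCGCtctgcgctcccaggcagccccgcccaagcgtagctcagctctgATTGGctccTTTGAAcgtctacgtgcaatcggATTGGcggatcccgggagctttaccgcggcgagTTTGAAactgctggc
Plk1 holds 1 CCAAT box in this stretch, Cdc20 holds 2 and 1 CHR element, and Cdk1 holds 3, together with 2 CHR elements and 2 E2F-type motifs.

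Promoter windows, from 250 bases before to 50 after the start, were found for 46 of the 54 member genes, 55 windows in all. An E2F-type motif (read on either strand as TTCCCGC, or else as TTGGCGC, or else as TTCGCGC, or else as TTGCCGC) was in 25.5% of them, against 9.57% of the 32851 windows of all genes. For the CHR element the shares were 23.6% and 17.9%, for the CCAAT box 56.4% and 37.4%, and for the E-box CACGTG 9.09% and 7.15%. In the 16 windows of licensing, clamp and loader genes, 43.8% held an E2F-type motif and 18.8% a CHR element. In the 10 windows of mitotic kinase, checkpoint, A-type and B-type cyclin genes, Cdk1 and Cdc20, 20% held an E2F-type motif, 70% a CHR element and 90% a CCAAT box. A CCAAT box read on the other strand (ATTGG) can share letters with TTGGCGC. These shares describe the windows, and no factor was measured.

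The D-type and E-type cyclins were called both against EB5 and within the session. Of their 9 probes, 2 were higher and 5 lower in RKPG9 than in EB5, none was higher and 5 were lower in HP3, and 1 was higher and 3 lower in HP4. Against RKPG9, none was higher and 4 were lower in HP3, and 4 were higher and 1 lower in HP4. Over all probes, 12.6% were higher and 10.1% lower in HP3, and 20.9% and 19.1% in HP4. Of the 9 probes, 4 belong to 1 gene, Ccnd2. These 4 were all the higher calls in HP4 against RKPG9, and 3 of them were among the 5 lower in RKPG9 than in EB5. Over all 64 probes, 14 were higher and 24 lower in RKPG9 against EB5, or 59.4% against 34.1% of all probes (12.5% higher and 21.6% lower). The counts were 7 and 20, or 42.2% against 30.5% (11.4% higher and 19.1% lower), in HP3, and 9 and 23, or 50% against 44.8% (18.4% higher and 26.4% lower), in HP4. Among the brighter probes, members were called at 61.5% against 48.4% of all probes in RKPG9, 42.3% against 43.6% in HP3 and 53.8% against 55.7% in HP4. Other scalings moved the split: median centring gave 7 higher and 23 lower in RKPG9, 1 higher and 36 lower in HP3 and 3 higher and 52 lower in HP4, and the Cy3 channel alone gave 15 and 6, 8 and 5, and 19 and 9. The processed signals of the scanner software gave 22 and 19 in RKPG9, and the authors' value table gave 21 and 19.

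Ccnd2 (cyclin D2) is measured by 4 probes, which did not behave alike. At the first (A_65_P18532) it was at -3.23, -3.10 and -3.16 in EB5 and -4.15, -4.19 and -4.22 in RKPG9, with -3.77, -4.28 and -3.86 in HP3 and -3.53, -3.84 and -3.82 in HP4. EB5 was the high line without overlap, and the change was -1.02 ± 0.12 in RKPG9 (SE, 2.03-fold lower, adjusted p = 3.5e-05), -0.80 in HP3 (1.75-fold, adjusted p = 0.00034) and -0.57 in HP4 (1.48-fold, adjusted p = 0.0023). With the processing used here, this change in RKPG9 was the 1 member value over 2-fold in any comparison. There, 0.524% of all probes were called and passed 2-fold. The study, with its own processing, lists the member Cdc42ep1 as more than 2-fold lower in HP3 than in EB5. At the second probe (A_65_P11252) the levels were -2.12, -1.78 and -2.07 in EB5 and -2.68, -2.68 and -2.77 in RKPG9, with -2.65, -2.65 and -2.63 in HP3 and -2.36, -2.38 and -2.46 in HP4. Again EB5 was highest without overlap, with changes of -0.72, -0.66 and -0.41 (adjusted p = 1.3e-05, 4.9e-05 and 0.00081). Without background subtraction the HP4 changes at these probes were 0.14 and 0.082, and the HP3 change at the first was -0.28 (adjusted p = 0.16).

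At the third Ccnd2 probe (A_65_P17036) the levels were -1.14, -1.14 and -1.16 in EB5 and -1.51, -1.59 and -1.60 in RKPG9, with -1.49, -1.70 and -1.64 in HP3 and -1.05, -1.25 and -1.22 in HP4. RKPG9 and HP3 were lower than EB5 by 0.41 (adjusted p = 0.00025) and 0.46 (adjusted p = 2e-04), whereas HP4 overlapped EB5 (-0.02, adjusted p = 0.79). With the Cy3 channel alone neither RKPG9 (-0.12, adjusted p = 0.29) nor HP3 (-0.11, adjusted p = 0.32) passed at this probe. At the fourth (A_65_P18251) the levels were -0.09, -0.10 and -0.24 in EB5 and -0.16, -0.13 and -0.23 in RKPG9, with -0.15, -0.18 and -0.17 in HP3 and 0.33, -0.01 and -0.08 in HP4. No difference from EB5 passed there. Against RKPG9, HP4 was higher at all 4 probes, by 0.46 (adjusted p = 0.0084), 0.31 (adjusted p = 0.0053), 0.39 (adjusted p = 0.00035) and 0.25 (adjusted p = 0.035), but with median centring the first 3 of these were -0.098, -0.087 and 0.086. With an offset of 0 the first and second were 0.28 (adjusted p = 0.078) and 0.060 (adjusted p = 0.65). The fourth rested on HP4 replicate 1, without which it was 0.13 (adjusted p = 0.071), and its call was also lost without any 1 RKPG9 array (0.23 to 0.27, adjusted p 0.056 to 0.1). Where on the transcript each probe lies was not examined here.

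**Figure D3:**
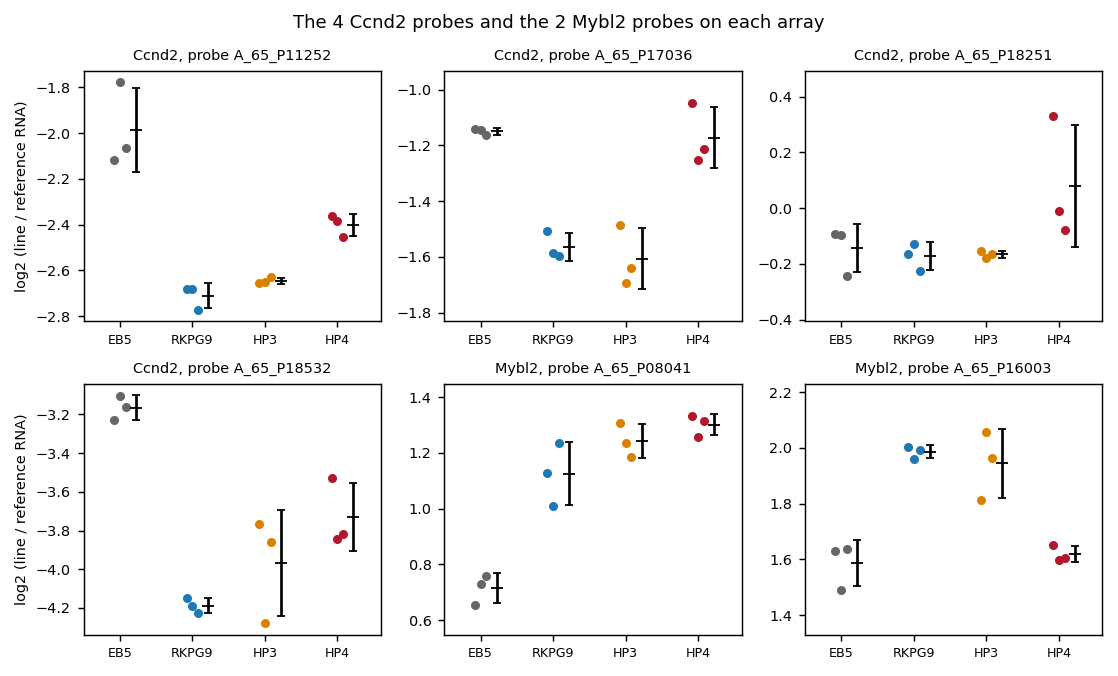
Levels at the 4 Ccnd2 probes and the 2 Mybl2 probes, as the log2 ratio of the line over the reference RNA on the y axis, with 1 point per array and the mean and SD of each line as a bar. Ccnd2 differs between EB5 and RKPG9 at 3 of its 4 probes, and HP4 stands above the other lines at A_65_P18251 only. By mean, HP4 is the highest line at one Mybl2 probe and lies below RKPG9 and HP3 at the other.

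Ccnd3 (cyclin D3) was at 0.60, 0.53 and 0.57 in EB5 and 0.39, 0.44 and 0.36 in RKPG9, with 0.17, 0.11 and 0.23 in HP3 and 0.26, 0.18 and 0.24 in HP4. EB5 was highest, RKPG9 next, and the Rex1-/- lines lowest, with an overlap only between HP3 and HP4. The change against EB5 was -0.17 in RKPG9 (adjusted p = 0.0064), -0.40 in HP3 (1.32-fold lower, adjusted p = 2.8e-05) and -0.34 in HP4 (1.27-fold lower, adjusted p = 5.6e-05). With the Cy3 channel alone these were 0.12, -0.11 and 0.01. Within the session, Ccnd3 was lower than in RKPG9 by 0.23 in HP3 (adjusted p = 0.0015) and by 0.17 in HP4 (adjusted p = 0.0055), where that setting gave -0.23 and -0.11, neither of which passed (adjusted p = 0.11 and 0.38). Ccne2 (cyclin E2), at -0.09, -0.22 and -0.11 in EB5 and 0.05, 0.27 and 0.29 in RKPG9, was higher in RKPG9 by 0.34 (adjusted p = 0.0017).

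Inhibitors of the G1 kinases were lower or did not pass in RKPG9 against EB5. Cdkn2b (p15) was at -0.92, -0.85 and -0.97 in EB5 and -1.19, -1.35 and -1.54 in RKPG9, with -1.53, -1.62 and -1.56 in HP3 and -1.26, -1.32 and -1.29 in HP4. It was highest in EB5 without overlap, and lower by 0.45 in RKPG9 (1.36-fold, adjusted p = 0.00043), 0.66 in HP3 (1.58-fold, adjusted p = 3.9e-05) and 0.38 in HP4 (1.30-fold, adjusted p = 0.0012). These calls were lost with the Cy3 channel alone in RKPG9 (-0.054, adjusted p = 0.69) and HP3 (-0.19, adjusted p = 0.12), and without background subtraction in HP4 (-0.029, adjusted p = 0.34). Against RKPG9 its arrays overlapped in HP3, with a change of -0.21 (adjusted p = 0.05, just under the threshold) that was lost without RKPG9 replicate 1 or 2 or any 1 HP3 array (-0.23 to -0.13, adjusted p 0.078 to 0.17). Cdkn2d (p19) was lower by 0.17 in RKPG9 than in EB5 (adjusted p = 0.0045), but 0.19 with the Cy3 channel alone. Cdkn2c (p18) was higher in HP4 than in RKPG9 by 0.53 (adjusted p = 3.7e-05), but it was well above background on only 1 of the 3 HP4 arrays, and the value was between -0.14 and -0.09 under 4 of the alternatives. Cdkn1b (p27) passed in no comparison and was well above background on 0 of the 3 RKPG9 arrays.

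Among the transcription factors, Mybl2 (B-Myb), an activator of late cycle genes, rose from EB5 to RKPG9 at both of its probes. At the first (A_65_P08041) it was at 0.66, 0.73 and 0.76 in EB5 and 1.13, 1.01 and 1.24 in RKPG9, with 1.31, 1.23 and 1.19 in HP3 and 1.33, 1.26 and 1.31 in HP4. EB5 was the low line, by 0.41 (adjusted p = 0.00014), 0.53 (adjusted p = 3.4e-05) and 0.59 (adjusted p = 1.2e-05), although with the Cy3 channel alone these differences were -0.20, -0.01 and -0.14. At the second (A_65_P16003) it was at 1.63, 1.49 and 1.64 in EB5 and 2.00, 1.96 and 1.99 in RKPG9, with 1.81, 2.06 and 1.96 in HP3 and 1.65, 1.60 and 1.61 in HP4. Here RKPG9 was higher than EB5 by 0.40 (adjusted p = 0.00023) and HP3 by 0.36 (adjusted p = 0.00075), whereas HP4 overlapped EB5 (0.03, adjusted p = 0.68). The call in RKPG9 was lost with the Cy3 channel alone (0.19, adjusted p = 0.17) and that in HP3 with median centring (0.22, adjusted p = 0.053).

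Against RKPG9 the 2 Mybl2 probes disagreed in HP4, at 0.18 (adjusted p = 0.025) and -0.37 (adjusted p = 4e-04). The first of these lost its call without RKPG9 replicate 1 or 2 or HP4 replicate 1 or 3 (0.12 to 0.18, adjusted p 0.058 to 0.1) and was -0.28 with median centring and -0.07 without background subtraction, and the second was -0.060 with the Cy3 channel alone (adjusted p = 0.69), so that the direction of Mybl2 in HP4 was not settled. Myc was at -0.68, -0.70 and -0.69 in RKPG9, with -0.59, -0.60 and -0.60 in HP3 and -0.49, -0.45 and -0.42 in HP4. HP4 was highest without overlap, by 0.24 against RKPG9 (adjusted p = 7.5e-05), but this was 0.014 with median centring (adjusted p = 0.78) and 0.063 with the Cy3 channel alone (adjusted p = 0.64). HP3 did not pass (0.09, adjusted p = 0.053).

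Of the kinases themselves, Cdk4, the partner of the D-type cyclins, passed in none of the 6 comparisons, with changes from -0.07 to 0.09. Cdk2 was at 0.82, 0.85 and 0.78 in EB5 and 0.74, 0.63 and 0.69 in RKPG9, with 0.59, 0.60 and 0.63 in HP3 and 0.57, 0.54 and 0.44 in HP4. HP4 was the lowest line without overlap, by 0.30 against EB5 (adjusted p = 0.00018) and 0.17 against RKPG9 (adjusted p = 0.0076), but with the Cy3 channel alone the differences were -0.023 and -0.069 (adjusted p = 0.87 and 0.65). Cdk7, the kinase that activates other Cdks, was at 1.27, 1.34 and 1.36 in EB5 and between 1.00 and 1.16 on all 9 other arrays. It was lower than in EB5 by 0.28 in RKPG9 (adjusted p = 7.9e-05), 0.24 in HP3 (adjusted p = 0.00037) and 0.19 in HP4 (adjusted p = 0.0012), but with the Cy3 channel alone the differences were -0.07, 0.14 and 0.27.

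Several of the largest changes belonged to members outside these roles. Cdc42ep1, an effector of Cdc42 that acts on the cytoskeleton, was at -1.96, -1.90 and -2.13 in EB5 and -2.86, -2.75 and -2.85 in RKPG9, with -2.89, -2.92 and -2.90 in HP3 and -2.61, -2.61 and -2.72 in HP4. EB5 was far above the others, which were lower by 0.82 (1.77-fold, adjusted p = 7e-07), 0.90 (1.87-fold, adjusted p = 6.8e-07) and 0.65 (1.57-fold, adjusted p = 6.3e-06). Without background subtraction the HP4 value was -0.02 (adjusted p = 0.76). Cdc42ep3, a related effector, was at -1.38, -1.23 and -1.36 in RKPG9, -0.87, -0.96 and -0.90 in HP3, -0.61, -0.70 and -0.80 in HP4 and -0.63, -0.66 and -0.73 in EB5. RKPG9 was the low line, and Cdc42ep3 was higher by 0.41 in HP3 (adjusted p = 0.00017) and 0.62 in HP4 (adjusted p = 4.6e-06).

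Cdkap1 (now Cdk2ap1), which binds Cdk2, was at 0.37, 0.42 and 0.42 in RKPG9, with 0.70, 0.68 and 0.65 in HP3 and 1.05, 1.07 and 1.04 in HP4. The 3 lines did not overlap, and the changes against RKPG9 were 0.28 (adjusted p = 8.5e-05) and 0.64 (1.56-fold, adjusted p = 7.3e-08), although with median centring the values were 0.16 (adjusted p = 0.27) and -0.044. Cdc37, a chaperone partner of kinases, was lower than in RKPG9 in HP3 (-0.20, adjusted p = 0.0038) and in HP4 (-0.28). It was at 1.129, 1.092 and 1.077 in RKPG9 and at 0.804, 0.845 and 0.816 in HP4, without overlap. Against EB5, Cdc37 was lower in HP4 by 0.36 (adjusted p = 3.8e-05). That value was -0.11 with the Cy3 channel alone (adjusted p = 0.18).

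HP4 and HP3, both Rex1-/-, differed at 13 members that were higher in HP4 and 10 that were lower, 35.9% of the 64 against 28.4% of all probes (13.7% higher and 14.7% lower). Among the brighter probes the shares were 36.5% and 37.1%. Median centring gave 8 higher and 43 lower, no background subtraction 16 and 20, and the Cy3 channel alone 4 and 2. Beside Pcna, Ccnb2 was lower in HP4, by 0.20 (adjusted p = 8e-04), and Cdc2a was higher, by 0.22 (adjusted p = 0.00082), but -0.32 with median centring. Cdc37l (now Cdc37l1), at probe A_65_P17756, was lower in HP4 by 0.22 (adjusted p = 0.008), and Mybl2 at probe A_65_P16003 by 0.33 (adjusted p = 0.002). Neither passed with the Cy3 channel alone (-0.12 and -0.15, adjusted p = 0.36 for both).

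The other genes of the pathway, 81 listed and 64 of them measured, were assigned to classes after the values of the members had been seen. The count over all 64 was 14 higher and 17 lower in HP3 and 14 higher and 25 lower in HP4 against RKPG9, beside 12.6% higher and 10.1% lower over all probes in HP3 and 20.9% and 19.1% in HP4. Of the 23 DNA replication genes, none was higher and 13 were lower in HP3, and 1 was higher and 16 were lower in HP4, with medians of -0.12 and -0.21. Tk1, the thymidine kinase of the nucleotide salvage pathway, was lower by 0.70 (adjusted p = 7.1e-08) and 0.60 (adjusted p = 1.5e-07). Gins4, a subunit of the helicase complex, was lower by 0.60 (adjusted p = 3.4e-07) and 0.61 (adjusted p = 2e-07), and Rrm2, of ribonucleotide reductase, by 0.48 (adjusted p = 9.5e-07) and 0.59 (adjusted p = 1.5e-07). Of these 23 genes, 7 were higher in RKPG9 than in EB5 and none was lower, beside 12.5% and 21.6% of all probes.

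Of the 27 mitosis and chromosome genes, 10 were higher and 3 lower in HP3, and 9 were higher and 7 lower in HP4, with medians of 0.10 and -0.00. The shares of all probes were 12.6% higher and 10.1% lower in HP3, and 20.9% and 19.1% in HP4. With median centring, 3 were higher and 3 lower in HP3, with a median of -0.0045, and none was higher and 26 were lower in HP4. Ect2, an exchange factor needed for cytokinesis, was higher by 0.60 (adjusted p = 3.2e-06) and 0.36 (adjusted p = 1e-04). Cenpe, a kinesin of the kinetochore, was higher in HP3 by 0.34 (adjusted p = 3.7e-05), and Top2a, which untangles chromosomes, in HP4 by 0.33 (adjusted p = 2e-04). In RKPG9 against EB5, 18 of the 27 were lower and none was higher, beside 21.6% and 12.5% of all probes. With the Cy3 channel alone, however, 1 was lower and 2 were higher.

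Of the 14 regulators, 4 were higher and 1 lower in HP3, and 4 higher and 2 lower in HP4, against RKPG9. Of all probes, 22.7% were called in HP3 and 40.0% in HP4, and of the brighter ones 35.6% and 52.1%. Beside these shares, the counts are not read as a trait of the regulators. Cdkn1c (p57), an inhibitor of Cdks, was higher by 1.07 in HP3 (adjusted p = 3.5e-06) and by 0.75 in HP4 (adjusted p = 4e-05), after a difference of -1.19 between RKPG9 and EB5 (adjusted p = 1.1e-06). Tfdp1, the partner that E2F proteins need to bind DNA, was lower by 0.85 in HP3 (adjusted p = 3.9e-08) and by 0.71 in HP4 (adjusted p = 8.4e-08), and it was higher by 0.61 in RKPG9 than in EB5 (adjusted p = 2.8e-07). Cdkn1a (p21) was lower than in EB5 by 0.45 in RKPG9 (adjusted p = 0.00011) and 0.49 in HP3 (adjusted p = 1e-04).

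**Figure D4:**
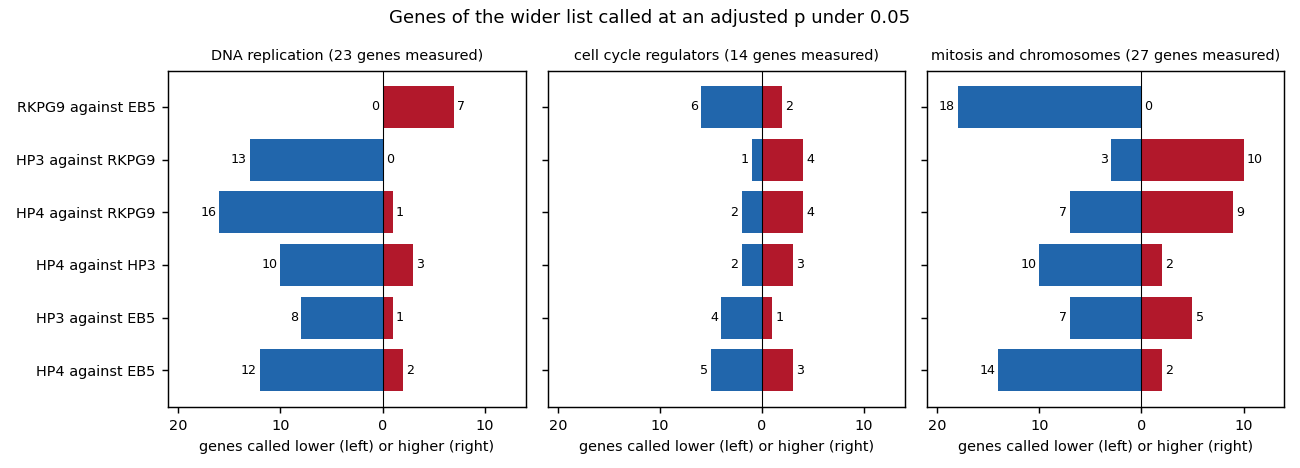
Bars show how many of the measured genes of the wider list were lower (blue, to the left) or higher (red, to the right) at an adjusted p under 0.05, for 6 comparisons on the y axis and 3 classes in the panels. DNA replication genes have 13 lower and 0 higher calls in HP3 against RKPG9 and 0 lower and 7 higher calls in RKPG9 against EB5. For mitosis genes the counts are 3 lower and 10 higher, and 18 lower and 0 higher.

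Another 57 probes of 44 genes meet the rule under their current symbol but not under that of the files. Of the Mcm helicase, Mcm5 (Mcmd5 in the files) was lower in HP3 by 0.34 (adjusted p = 7e-05) and in HP4 by 0.70 (adjusted p = 1.7e-07) against RKPG9. Mcm2 and Mcm3 were higher in HP3, by 0.12 (adjusted p = 0.043) and 0.13 (adjusted p = 0.025), and did not pass in HP4 (0.00 and 0.03). Mcm4 and Mcm7 were lower in HP4, by 0.12 (adjusted p = 0.026) and 0.15 (adjusted p = 0.0064), and did not pass in HP3, and Mcm6 passed in neither. The helicase subunits therefore did not move together. Of the clamp loader, Rfc4 (AU040575 in the files) was at 0.364, 0.333 and 0.322 in RKPG9. It was above these in HP3 (0.562, 0.573 and 0.599) and below them in HP4 (0.084, 0.125 and 0.105), without overlap. Rfc1 (Recc1 in the files) was at 0.584, 0.573 and 0.543 in RKPG9, lower in HP3 (0.475, 0.411 and 0.382) and overlapping in HP4 (0.639, 0.587 and 0.504). Aurka, the Aurora kinase of the spindle poles (Stk6 in the files), was higher by 0.29 in both HP3 (adjusted p = 8.7e-05) and HP4 (adjusted p = 6.7e-05). Mycn (Nmyc1 in the files) was lower in HP4 by 0.28 (adjusted p = 0.021) and did not pass in HP3 (0.08).

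The direction of the replication classes was the same under the 16 alternatives run for each comparison, 6 of which left out 1 array. The filter on dim probes, the replicate block and the fit of only the 2 lines left these medians unchanged, so they do not test it. With median centring, the brighter probes as a whole lay at -0.31 in HP4. With the Cy3 channel alone, 1 of the 9 licensing members was called lower in HP3 and 2 in HP4. The Mcm subunits, Rfc1 and Rfc4, given above, are in neither replication class. The median of the 9 licensing members was between -0.16 and -0.04 in HP3 and between -0.45 and -0.05 in HP4, and that of the 23 DNA replication genes between -0.21 and -0.08 and between -0.63 and -0.17, with more lower than higher calls each time. The 5 mitotic kinase and checkpoint members had a median above 0 in HP3 under each of them (0.07 to 0.16), with more higher than lower calls under 15 and more lower under 1, median centring. In HP4 the median was -0.28 with median centring and -0.00 without background subtraction. The mitosis genes of the wider list had a median from -0.0045 to 0.11 in HP3 and from -0.44 to 0.09 in HP4.

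**Figure D5:**
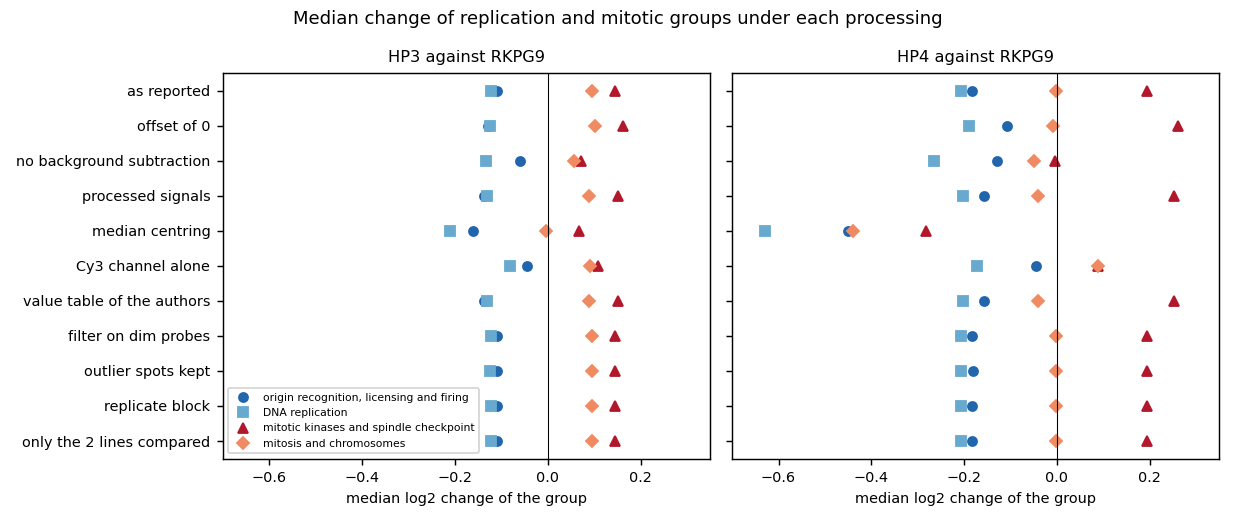
Median log2 change against RKPG9 (x axis) of 2 member groups (licensing, mitotic kinases and checkpoint) and 2 classes of the wider list (DNA replication, mitosis and chromosomes), as reported and under each alternative that kept all arrays of the comparison (y axis). Blue symbols lie below 0 in every line of both panels. In HP4 the kinase and checkpoint symbols lie below 0 with median centring and, at -0.003, without background subtraction. The mitosis and chromosome symbols lie below 0 in HP4 in every line but that of the Cy3 channel alone (0.09), at -0.0028 as reported. In HP3 they do so with median centring (-0.0045).

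Across the series, 85.3 to 94.5% of probes were well above background in Cy3, and arrays of 1 line correlated at 0.98 to 0.99. The members varied little within a line, with a median SD of 0.04 to 0.05. Rex1 itself (Zfp42) has 2 probes, whose levels were 5.86 to 5.99 in EB5 and 5.94 to 6.05 in RKPG9, with 5.77 to 6.11 in HP3 and 5.22 to 5.66 in HP4. The position of these probes relative to the replaced stretch was not given, so that they check no label. Other genes moved with the lines as well: of 8 ES cell markers measured, 5 were lower and 1 higher in HP4 against RKPG9, and 1 was higher in HP3, with a summed Cy3 signal of 221000 to 224000 in RKPG9, 146000 to 174000 in HP3, 95200 to 110000 in HP4 and 170000 to 182000 in EB5. All 8 were well above background in every line. The sums given here and below were not scaled between arrays, and the HP4 arrays were dimmer as a whole. The median Cy3 intensity over all spots of gene probes was 481.5 to 487.4 in HP4 and 540.7 to 546.2 in RKPG9. A lower sum is therefore no measure of a lower marker, for which the calls on the ratios are given. Of 4 fibroblast or mesenchymal markers, all 4 were lower in RKPG9 and HP3 than in EB5 and 3 in HP4, with sums of 36700 to 39900 in EB5 and 16600 to 21500 in the other lines. Against RKPG9, 1 of these was higher and 1 lower in HP3, and 3 were higher and 1 lower in HP4. Of 7 trophoblast markers, 4 were lower and 1 higher in RKPG9 than in EB5, with sums of 17300 to 18200 in EB5 and 11300 to 12400 in RKPG9, and of 10200 to 11600 in HP3 and 6310 to 7010 in HP4. Against RKPG9, 1 was lower in HP3, and 3 were higher and 1 lower in HP4. Eomes was not well above background in HP3, nor were Eomes and Hand1 in HP4. Of 8 endoderm markers, 1 was lower in HP3 and 3 were higher and 2 lower in HP4 against RKPG9. Foxa2 was lower in both, and it was well above background in RKPG9 only. The sums were 2920 to 3200 in EB5, 2300 to 2560 in RKPG9, 1720 to 1910 in HP3 and 1700 to 1910 in HP4, and Gata4 and Ttr were not well above background in RKPG9 and HP3, nor Gata4 in HP4. Of 4 mesoderm markers, 1 was lower in each Rex1-/- line than in RKPG9, and against EB5 1 was lower in RKPG9, 2 in HP3 and 3 in HP4. The mesoderm sums were 4720 to 5960 in EB5, 2050 to 2450 in RKPG9, 2040 to 2350 in HP3 and 1410 to 1700 in HP4, and Gsc was not well above background outside EB5. Beside these marker counts, 22.7% of all probes were called in HP3 and 40.0% in HP4 against RKPG9. Against EB5 the shares were 34.1% in RKPG9, 30.5% in HP3 and 44.8% in HP4. The part of the markers in the results was not tested.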

How the data were processed

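Total RNA of 4 lines was hybridised on 12 two-colour Agilent arrays (NIA Mouse 22K design), the line in Cy3 and the pooled reference RNA in Cy5, with no dye swap. The authors deposited, per the file headers, the spot intensities of Agilent Feature Extraction 7.5.1, not normalized between arrays, and a value table on a log10 scale made from the same arrays. Its centring was not stated, and it was used only as an alternative.

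Mean intensities were corrected for local background (normexp, offset 50) and normalized within each array by loess, with control and outlier spots at weight 0. Outlier spots were dropped, spots of 1 probe were averaged, and 1 probe named Retired was left out, which left 20280 probes. The log2 ratios of all 12 arrays were fitted with limma 3.58.1 in R 4.3.3 (lmFit and eBayes, 8 residual degrees of freedom), with Benjamini-Hochberg adjustment over all probes and a threshold of 0.05. The 6 comparisons between lines share arrays. The fit was tested on simulated data for HP3 against RKPG9, with 100 probes changed by 0.2 and 100 by 0.5 on the log2 scale. It recovered 35% of the changes of 0.2 and 93% of those of 0.5, with 11 false calls among 20280 probes. Far fewer probes changed there than were called in the real data. A member that did not pass may still have changed by about 0.2. Figures were drawn with matplotlib 3.10.9. Precision is limited by having 3 arrays per line.

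The members, roles and gene lists were chosen with earlier results of these data known, and no p-value was adjusted over a list. Named were members with a large change among those called, without overlap of the arrays and well above background, together with a list of canonical cycle genes and genes whose probes disagreed. 1 member is not reported here on its own and enters only the counts and medians. The text gives part of the others, and it adds genes that meet the rule only under their current symbol. For the wider list, up to 4 genes in each direction were open to naming. Promoter windows were read from RefSeq (GRCm38.p6).

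Alternatives were an offset of 0, no background subtraction, the scanner's processed signals, median centring in place of loess, the Cy3 channel alone with quantile normalization, the value table, a filter on dim probes, outlier spots kept, a replicate block, a fit of only the 2 lines compared, and each array left out in turn.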

Additional observations from a re-analysis of the deposited data

Results flagged for a closer look

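Members that differed between HP4 and HP3, both Rex1-/-, and whose changes against RKPG9 had opposite signs were listed, and 8 probes met this. The limma test of HP4 against HP3 is the test of that difference. The largest was Ccnd2 at A_65_P17036, 0.43 higher in HP4 (adjusted p = 5e-04), with -0.04 in HP3 and 0.39 in HP4 against RKPG9. It was 0.19 with the Cy3 channel alone (adjusted p = 0.16). Cdkn2b was 0.28 higher in HP4 (adjusted p = 0.012), with -0.21 and 0.07, and Cdc42ep1 was 0.25 higher (adjusted p = 0.0069), with -0.08 and 0.17. With the processed signals these turned to -0.059 and -0.040, with the Cy3 channel alone to -0.056 and -0.016, and Cdc42ep1 with median centring to -0.092. Ccnd1 at A_65_P04987 was 0.20 higher (adjusted p = 0.0024), with -0.13 and 0.07, but it turned to -0.23 with median centring (adjusted p = 0.0047) and was 0.11 with the Cy3 channel alone (adjusted p = 0.51).

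Lower in HP4 than in HP3 was Cdc5l at A_65_P11500, with -0.26 (adjusted p = 0.00053) and with 0.03 and -0.23 against RKPG9. The value was -0.18 for Orc5l (adjusted p = 0.0096, with 0.09 and -0.09), -0.18 for Rfc5 (adjusted p = 0.01, with 0.06 and -0.12) and -0.13 for Cdc2l2 (adjusted p = 0.028, with 0.01 and -0.12). With the Cy3 channel alone Cdc5l (-0.043), Orc5l (-0.13), Rfc5 (-0.023) and Cdc2l2 (-0.13) did not pass (adjusted p 0.25 to 0.89), and neither Orc5l (-0.14) nor Cdc2l2 (-0.085) did with an offset of 0. The call for Cdc2l2 was lost without HP3 replicate 2 or 3 or HP4 replicate 1 or 2 (adjusted p 0.059 to 0.1). With 3 arrays per line, no array was tested for standing apart within its line.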

How the results depend on the processing

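Of 108 named changes, 95 kept their call without each single array and 13 lost it without at least 1. None of the 108 changed call with the filter on dim probes. That filter could not drop a member named for a large change, since such members had to be well above background to be named. With median centring, 77 kept their call, 14 lost it and 17 turned, and with the Cy3 channel alone 43 kept it, 49 lost it and 16 turned. The number of called members was 13 in HP3 against EB5, 21 in RKPG9 against EB5, 11 in HP3 against RKPG9, 18 in HP4 against RKPG9 and 6 in HP4 against HP3 when the Cy3 channel stood alone, 55 in HP4 against EB5 and 51 in HP4 against HP3 with median centring, and 36 in HP4 against HP3 without background subtraction. Of the other genes of the pathway, 17 (HP3 against RKPG9) and 5 (HP4 against HP3) were called with the Cy3 channel alone, and 61 (HP4 against EB5), 20 (HP3 against RKPG9) and 62 (HP4 against HP3) with median centring.

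With 1 array left out, called members numbered 23 to 25 in HP3, 25 to 33 in HP4 and 30 to 36 in RKPG9 against EB5, 18 to 22 in HP3 and 33 to 36 in HP4 against RKPG9, and 17 to 23 in HP4 against HP3. For the other genes the ranges were 21 to 25, 36 to 40, 28 to 32, 26 to 29, 32 to 38 and 23 to 27 in the same order.

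Changes that turned with median centring were, in HP4 against RKPG9, Bub1 (-0.18), Bub1b (-0.24), Mybl2 at A_65_P08041 (-0.28), Ccnd2 at A_65_P11252 (-0.087) and A_65_P18532 (-0.10), Cdc2a (-0.33), Plk (-0.28), Cdkap1 (-0.044) and Cdc20 (-0.32). In HP4 against HP3 they were Ccnd1 (-0.23), Cdc42ep1 (-0.092), Ccnd2 at A_65_P11252 (-0.08), Cdc2a (-0.32) and Cdkap1 (-0.20), in HP4 against EB5 Bub1b (-0.20) and Cdkap1 (-0.36), and in HP3 against RKPG9 Cdc2a (-0.010).

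With the Cy3 channel alone, those that turned were Cdkn2c (-0.14), Cdc6 (0.13) and Orc1l (0.0055) in HP4 against RKPG9, Cdkn2b (-0.056), Cdc42ep1 (-0.016) and Ccnd2 at A_65_P11252 (-0.090) in HP4 against HP3, and, against EB5, Mybl2 at A_65_P08041 (-0.20 in RKPG9, -0.012 in HP3, -0.14 in HP4), Ccnd3 (0.12 in RKPG9, 0.013 in HP4), Cdc16 (0.12 in HP3), Cdk7 (0.14 in HP3, 0.27 in HP4), Cdkn2d (0.19 in RKPG9) and Cdc45l (0.084 in RKPG9). Without background subtraction, Bub1b (-0.0032) and Mybl2 at A_65_P08041 (-0.071) turned in HP4 against RKPG9 and Ccnd2 at A_65_P11252 (0.082) and A_65_P18532 (0.14) in HP4 against EB5. Cdkn2c in HP4 against RKPG9 was -0.089 with an offset of 0 and -0.12 with the processed signals and the value table, under both of which Cdkn2b (-0.059), Cdc42ep1 (-0.040) and Ccnd2 at A_65_P11252 (-0.026) turned in HP4 against HP3. The cause was not tested.

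Arrays with the same replicate number in the lines compared had deviations that correlated between -0.18 and 0.20. The values were all positive in HP4 against HP3 (0.086 to 0.20) and HP4 against RKPG9 (0.021 to 0.15), and of mixed sign in the other comparisons. Arrays with unequal numbers were not compared in this way, so that these values do not settle whether the numbers pair the arrays. With the replicate block, 28 (HP3), 35 (HP4) and 38 (RKPG9) members were called against EB5, 26 (HP3) and 40 (HP4) against RKPG9, and 24 in HP4 against HP3, and none of the 108 named calls changed.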
